A study of Homo sapiens with 9 samples.

Results

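Aminoacyl-tRNA synthetases join each amino acid to its transfer RNA, the step that sets the meaning of the genetic code before the ribosome is reached. Human cells keep 2 sets of these enzymes, a cytosolic set for the translation of nuclear messages and a mitochondrial set, encoded in the nucleus and imported, for the proteins made inside mitochondria. Several cytosolic enzymes sit in the multisynthetase complex around the scaffold proteins AIMP1, AIMP2 and EEF1E1, and many cytosolic synthetase genes are known targets of ATF4, the transcription factor of the amino acid response. The 36 genes described here were taken by name, under their older symbols, from a table of 27671 gene names. There were 20 cytosolic and 16 mitochondrial enzymes, and all 36 passed the filter on low counts that left 15551 genes.

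RNA sequencing was performed in A498, a long-established human cell line from a clear cell renal carcinoma, in 3 groups of 3 biological replicates. All groups were infected with lentivirus carrying an shRNA in a pLKO.1 vector and selected with puromycin, and they differed in the hairpin, which was a control sequence in shControl, targeted BMAL1 in shBMAL1 and targeted ARNT in shARNT. The study's methods name 1 hairpin for ARNT and 2 for BMAL1 without saying which of the latter was used in A498, and the labels give 1 shRNA group per target, so the gene and the hairpin cannot be told apart. ARNT pairs with the hypoxia-inducible factors, BMAL1 pairs with CLOCK to drive the circadian rhythm of transcription, and the study asked what each contributes to HIF2α-dependent expression in renal carcinoma cells.

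Libraries held 35269857 to 36099083 counts, and levels are given as CPM, edgeR's per-library count rate, with library sizes adjusted by TMM factors. ARNT in shARNT fell by 2.41 as a log2 value (edgeR quasi-likelihood test, adjusted p = 1.35e-17) and BMAL1, listed as ARNTL, fell by 1.70 in shBMAL1 (adjusted p = 1.94e-11). Each partner also moved in the other depletion, ARNT falling by 0.65 in shBMAL1 (adjusted p = 1.55e-08) and ARNTL rising by 0.55 in shARNT (adjusted p = 8.29e-06). The shBMAL1 group thus had less of both transcripts, while shARNT had less ARNT and more ARNTL. EPAS1, which encodes HIF2α, also fell, by 2.22 in shARNT and 0.57 in shBMAL1. Of 12 markers of other cell types, 9 had at most 50 counts in every library, among them CD3E and HBB with 0, and the summed CPM of all 12 was at most 13.2 in shControl, 12.7 in shBMAL1 and 3.48 in shARNT. Of 9 renal carcinoma markers, 7 fell and 1 rose in each depletion. Over all genes, 41.3% were called lower and 40.5% higher in shARNT, and 31.5% and 31.9% in shBMAL1. The marker that rose was PAX8, by 1.48 in shARNT and 0.18 in shBMAL1. The summed CPM ranged from 7937.5 up to 7990.8 in shControl, from 5898 up to 6382 in shBMAL1 and from 2109.7 up to 2264 in shARNT. VIM was the largest part of these sums, with means of 5974 CPM in shControl, 4309 in shBMAL1 and 812 in shARNT. EPCAM was near 0 throughout, at 2 to 17 counts per library. The part that these shifts have in the synthetase results was not tested. The replicates come from 1 cell line, and in bulk RNA fewer expressing cells and less RNA per cell cannot be told apart.

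In control cells the cytosolic enzymes were the more abundant set per length of transcript. The median level in shControl was 50.8 CPM per kb for the 20 cytosolic genes (5.67 to 169) and 8.31 CPM per kb for the 16 mitochondrial genes (2.54 to 119). GARS, the glycine enzyme that serves both compartments, was highest at 169 ± 3.69 CPM per kb (SD, n = 3), followed by IARS2, the mitochondrial isoleucine enzyme, at 119 ± 3.70. Among the 18 highest levels were 16 cytosolic genes and only 2 mitochondrial ones, IARS2 and CARS2. The lowest 4 genes were all mitochondrial, with 3.01 ± 0.239 CPM per kb for PARS2, 2.65 ± 0.161 for LARS2, 2.62 ± 0.277 for NARS2 and 2.54 ± 0.327 for MARS2, and their libraries overlapped from each gene to the next. FARSB was the lowest cytosolic gene at 5.67 ± 0.117 CPM per kb although it encodes 1 of the 2 subunits of the phenylalanine enzyme whose other subunit, FARSA, stood at 39.5 ± 0.316. In the order of all 36 levels, 16 of 35 neighbours had overlapping libraries, among them the run from NARS (52.8 ± 2.56) through AARS, EPRS, CARS, VARS and CARS2 to HARS (45.5 ± 0.924). With coding length in place of transcript length the upper 18 again held 16 cytosolic genes, while FARSB moved from place 31 to 26 and EARS2 from 26 to 19. FARSB then stood at 21.7 and FARSA at 47.0 CPM per kb of coding sequence, so the gap between these subunits depended largely on the length used.

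**Figure D1:**
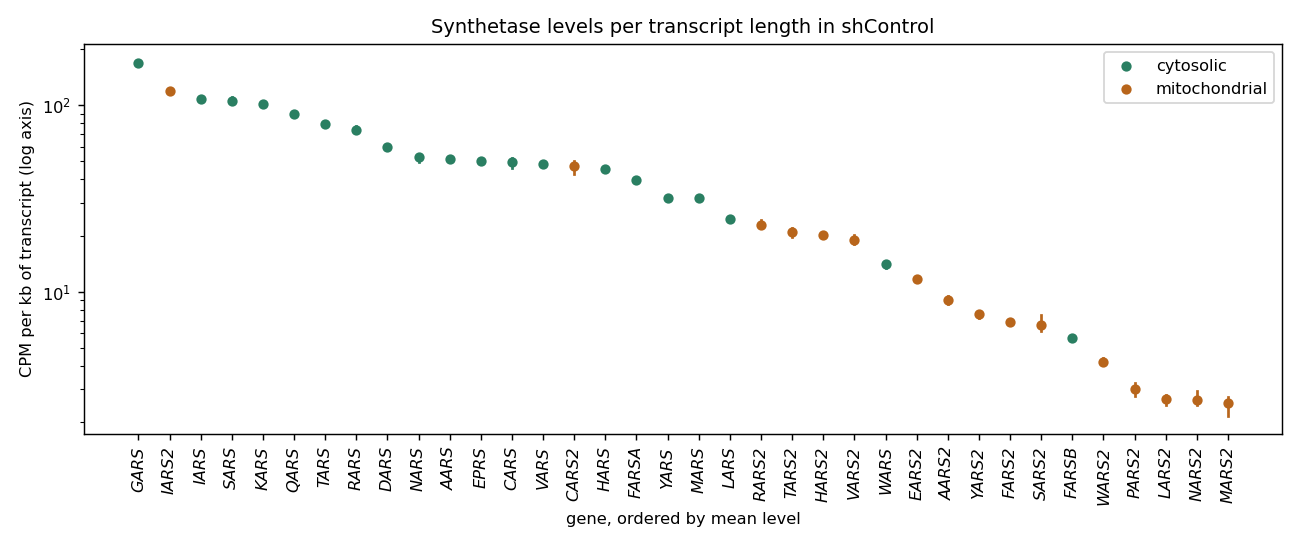
Mean CPM per kb of transcript in shControl for the 36 synthetase genes on a log axis, ordered by level, with bars from the lowest to the highest of 3 libraries. GARS and IARS2 lead at 169 and 119 CPM per kb, and the 4 lowest genes are mitochondrial.

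Promoter sequences, from 250 bases before to 50 bases after the RefSeq start (GRCh38.p14), were at hand for 30 of the 36 members, and all 30 were found unchanged at a single place in GRCh37, whose coordinates are used here. The composite element read by ATF4 with C/EBP proteins (TGATGNAA, either strand) stood in 6 of 16 cytosolic promoters (37.5%), those of AARS, CARS, IARS, MARS, NARS and TARS, in 1 of 14 mitochondrial promoters, that of YARS2, and in 3.67% of 27305 promoters. The E-box bound by BMAL1 with CLOCK (CACGTG) stood in 1 cytosolic promoter, that of IARS, and in 3 mitochondrial promoters, those of CARS2, EARS2 and MARS2, against 7.43% of all promoters. The core of the hypoxia response element (ACGTG or GCGTG, either strand) was in 24 of 30 member promoters (80%) and in 48.4% of all promoters. Each E-box holds such a core within it, and the same 24 promoters also had a core outside any E-box. These letters are matches and not sites shown to be bound. In 4 of the 6 cytosolic promoters the composite element reached into the transcribed bases. For the rest, in which the element lay 187 (AARS), 13 (IARS) and 197 (YARS2) bases before the start, 30 bases are given to show the element itself, in capitals, which in AARS and IARS reads as its reverse complement.
AARS (chr16:70323578-70323607, minus strand): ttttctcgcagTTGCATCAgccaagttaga
IARS (chr9:95055980-95056009, minus strand): cccgcattttcagcgcgTTGCATCAcctcc
YARS2 (chr12:32909010-32909039, minus strand): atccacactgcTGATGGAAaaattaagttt
The E-boxes of IARS, EARS2 and MARS2 lay 186, 15 and 11 bases before the start and are given likewise, with the E-box in capitals.
IARS (chr9:95056148-95056177, minus strand): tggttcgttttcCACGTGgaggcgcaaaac
EARS2 (chr16:23568672-23568701, minus strand): acgcagggagaagccCACGTGtgctattcc
MARS2 (chr2:198570063-198570092, plus strand): gctgcgcatgcgcctctcaCACGTGctgtc
Of the 7 carriers of the composite element, CARS, IARS, MARS, NARS and YARS2 were called higher in shARNT, AARS lower, and TARS was not called. In shBMAL1 the carriers AARS, CARS, IARS, MARS, TARS and YARS2 were called higher, NARS was not called (0.02 on the log2 scale) and none was lower. The YARS2 call there had an adjusted p of 0.0892 in edgeR's quasi-likelihood test and was lost in several alternative fits. Of the 4 E-box carriers, EARS2, IARS and MARS2 were higher and CARS2 lower in shARNT, and in shBMAL1 IARS was higher, EARS2 lower and the others not called. Over all genes, 40.5% were called higher and 41.3% lower in shARNT, and 31.9% and 31.5% in shBMAL1. A link between these letters and the calls was not tested.

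After ARNT depletion most cytosolic synthetase transcripts rose. Of 20 genes, 13 were called higher, 4 lower and 3 were not called at an adjusted p under 0.1 in edgeR's quasi-likelihood test, with a median log2 fold change of 0.37 beside -0.01 over all genes. Calls were common in this comparison, since 81.8% of 15551 genes were called, 40.5% higher and 41.3% lower. The libraries of shARNT and shControl did not overlap for 17 of the 20 genes, the same 17 that were called. That was so for 79.7% of all genes tested, called or not.

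WARS, the tryptophan enzyme and a known interferon gamma target (chromosome 14, 100800127 to 100843142, minus strand, GRCh37), rose most. Its level was 36.8, 38.8 and 35.3 CPM in shControl and 116, 113 and 117 CPM in shARNT, a rise of 1.64 (SE 0.049, adjusted p = 5.10e-17) on the log2 scale. In shBMAL1 it stood between these groups at 59.7, 56.5 and 57.5 CPM, 0.65 (SE 0.05, adjusted p = 9.91e-10). MARS, the methionine enzyme that also charges the initiator tRNA (chromosome 12, 57869228 to 57911352, plus strand), went from 88.9, 85.4 and 92.00 CPM to 197, 199 and 213 CPM in shARNT, 1.19 (SE 0.043, adjusted p = 1.03e-15). It was also the largest rise of the class in shBMAL1, at 151, 148 and 151 CPM, 0.76 (SE 0.043, adjusted p = 1.02e-11). For both genes the 3 groups were fully separated, with shBMAL1 in the middle. FARSA, LARS, YARS, NARS, SARS and HARS rose by 1.13, 1.08, 0.99, 0.96, 0.80 and 0.76 in shARNT. FARSB and QARS rose by 0.38 and 0.16. EPRS, KARS and TARS were not called, with -0.05, 0.01 and 0.03. With scaling by library size alone these genes (0.19, 0.25 and 0.26) and VARS were called higher, which made 17 cytosolic genes higher and 3 lower. The use of strand in counting was not stated, and 2.3% of the MARS transcript overlaps DDIT3 and 7.3% of the WARS transcript a noncoding RNA, each on the opposite strand.

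Only 2 cytosolic enzymes fell by more than 1.5-fold in shARNT. DARS, the aspartate enzyme (chromosome 2, 136663451 to 136743670, minus strand), fell from 188, 182 and 185 CPM to 102, 99.3 and 103 CPM, -0.87 (SE 0.042, adjusted p = 1.05e-13). The deposited DARS counts held fractions in every library, and how these were assigned is not known. GARS (chromosome 7, 30620149 to 30673649, plus strand), the most abundant of all members in shControl, fell from 416, 401 and 418 CPM to 262, 268 and 276 CPM, -0.61 (SE 0.037, adjusted p = 5.04e-12), and 10.9% of its transcript overlaps a divergent noncoding RNA on the opposite strand. In shBMAL1 neither gene fell. DARS measured 195, 213 and 202 CPM there, a small rise of 0.14 (SE 0.041, adjusted p = 0.00752), and GARS measured 414, 401 and 388 CPM, -0.04 (SE 0.037, adjusted p = 0.403), with libraries that overlapped shControl. AARS, the alanine enzyme, was lower in shARNT at 119, 133 and 144 CPM against 179.9, 169.6 and 181 CPM in shControl, -0.42 (SE 0.052, adjusted p = 3.06e-07). VARS, the valine enzyme, was also called lower, -0.14 (SE 0.044, adjusted p = 0.00796), but rose by 0.10 when libraries were scaled by size alone, a scaling under which the median of all genes moved from -0.01 to 0.23 and the share of higher genes among the called from 49.6% to 60.5%.

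After BMAL1 depletion the cytosolic genes called were again mostly higher. Here 13 were called higher, 1 lower and 6 were not called, with a median log2 fold change of 0.24 beside 0.00 over all genes, while 63.4% of genes were called in this comparison, 31.9% higher and 31.5% lower. After MARS and WARS came YARS with 0.56, TARS with 0.52, AARS with 0.48, CARS with 0.46 and IARS with 0.41. TARS, the threonine enzyme, measured 300.03, 302 and 309 CPM in shBMAL1 against 221, 205 and 210.3 CPM in shControl and 204, 217 and 227 CPM in shARNT, so the groups of shControl and shARNT overlapped. VARS was the single fall, from 194, 199 and 207 CPM to 161, 158 and 174 CPM, -0.28 (SE 0.044, adjusted p = 1.44e-05), and its shARNT libraries at 181, 178 and 188 CPM lay between these groups. HARS, NARS, QARS, RARS, SARS and GARS were not called, with log2 fold changes from -0.04 to 0.08, and SARS was called without shControl replicate 1 (0.11) or shBMAL1 replicate 1 (0.09).

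Both depletions were compared with the same shControl libraries, so the direct contrast of shARNT with shBMAL1 was used to ask where they differed. All 20 cytosolic genes were called, 12 higher and 8 lower in shARNT, with a median of 0.16 beside -0.01 over all genes, and 81.2% of genes were called, 40.1% higher and 41.1% lower. Of 8 genes above shControl in both depletions, FARSA, FARSB, LARS, MARS, WARS and YARS were higher in shARNT than in shBMAL1, by 0.10 (FARSB) to 0.99 (WARS), and CARS and IARS were lower, by -0.11 and -0.28. The CARS difference became 0.08 with scaling by library size alone and was lost without shARNT replicate 2 (-0.08), and that of FARSB was lost in 4 of the fits without 1 library, those without shBMAL1 replicate 1 (0.07) or 3 (0.10) and shARNT replicate 2 (0.10) or 3 (0.11). HARS, NARS, QARS, RARS and SARS were called higher in shARNT and not in shBMAL1, and each was also higher in shARNT in the direct contrast, by 0.18 (QARS) to 0.93 (NARS). EPRS, KARS and TARS were called higher in shBMAL1 and not in shARNT, with direct differences of -0.26, -0.18 and -0.49, of which that of KARS became 0.02 with library size alone. AARS and DARS were called in opposite directions in the depletions and differed by -0.90 and -1.01.

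**Figure D2:**
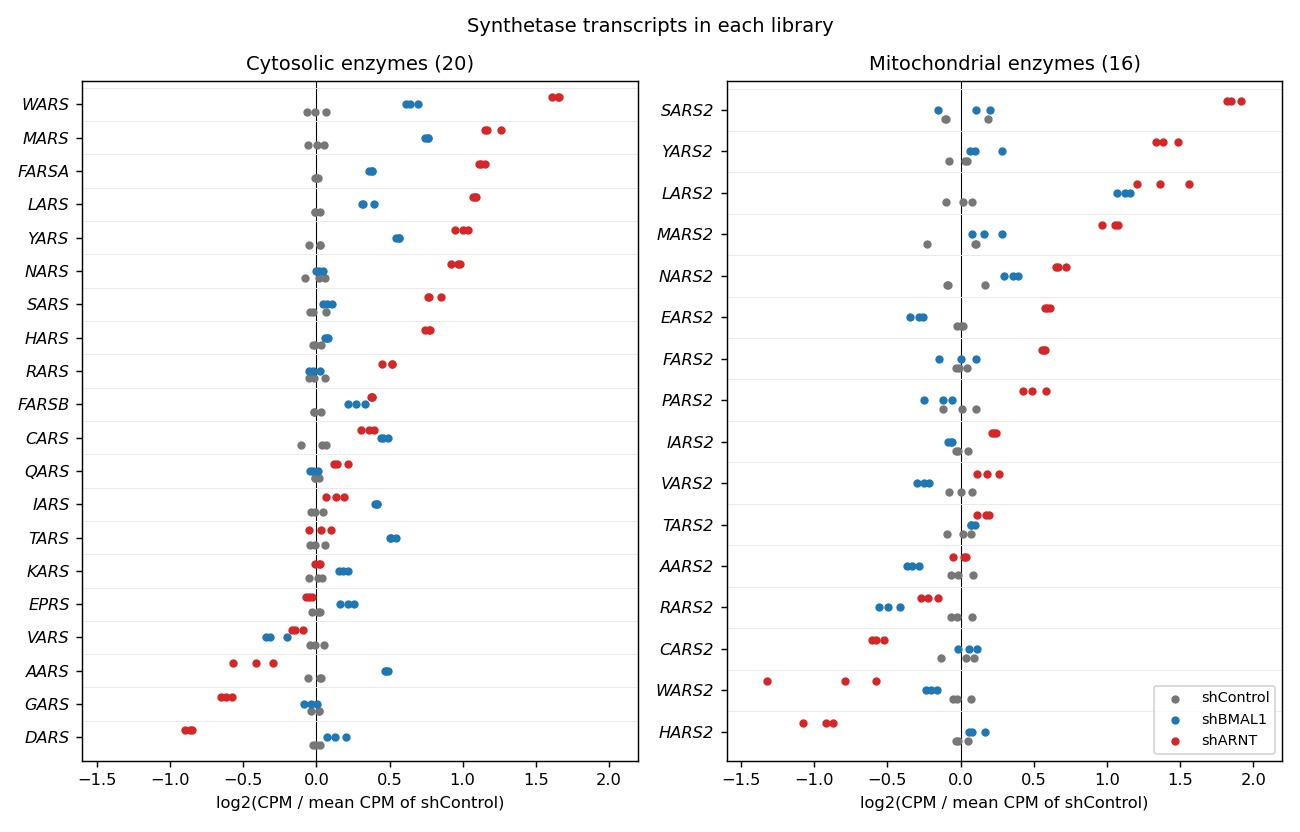
Log2 of the CPM of each library over the mean CPM of shControl for each cytosolic (left) and mitochondrial (right) gene, with 3 points a group, ordered by the shARNT change. SARS2, WARS, YARS2 and LARS2 lie furthest to the right in shARNT and HARS2, WARS2 and DARS furthest to the left, while among the mitochondrial genes shBMAL1 moves far only at LARS2.

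The summed level of the 20 cytosolic genes ranged in CPM from 3418.7 up to 3560.2 in shControl, from 4091 up to 4109.9 in shBMAL1 and from 4149.6 up to 4322 in shARNT. It was higher in every depleted library than in any control library, although GARS and DARS fell in shARNT. All 36 members together took between 0.406% and 0.423% of the counts of a control library, between 0.480% and 0.485% with BMAL1 depleted and between 0.579% and 0.594% with ARNT depleted. The 8 enzymes of the multisynthetase complex (DARS, EPRS, IARS, KARS, LARS, MARS, QARS, RARS) did not move as a unit, with 5 higher, 1 lower and 2 not called in shARNT (median 0.15) and 6 higher and 2 not called in shBMAL1 (median 0.20). In the direct contrast 4 of them were higher and 4 lower (median 0.00), beside 40.1% of all genes called higher and 41.1% called lower. Of 12 members with a known place in the amino acid response (AARS, CARS, EPRS, GARS, IARS, LARS, MARS, NARS, SARS, TARS, WARS, YARS), 8 rose and 2 fell in shARNT (median 0.58), the falls being AARS and GARS, and 9 rose and none fell in shBMAL1 (median 0.44). The shares over all genes were 40.5% higher and 41.3% lower in shARNT, and 31.9% and 31.5% in shBMAL1.

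In shARNT 11 of 16 were higher, 4 lower and 1 was not called, with a median log2 fold change of 0.36, beside 40.5% of all genes called higher and 41.3% called lower. In shBMAL1 3 were higher, 5 were lower and 8 were not called, with a median of 0.02, beside 31.9% of all genes called higher and 31.5% called lower there, so that the lower share was near that of all genes. Scaling by library size alone turned the shBMAL1 split into 6 higher and 4 lower. In the direct contrast 12 were higher in shARNT, 3 lower and 1, TARS2, was not called, with a median of 0.33. Of all genes, 40.1% were called higher and 41.1% lower in that contrast. The summed level ranged in CPM from 915 up to 928 in shControl, from 879.96 up to 891 in shBMAL1 and from 1069 up to 1083 in shARNT. With this TMM scaling the 3 groups did not overlap. As a share of library counts, however, shControl (0.0853% to 0.0870%) and shBMAL1 (0.0847% to 0.0865%) overlapped, and only shARNT stayed apart.

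SARS2, the mitochondrial serine enzyme (chromosome 19, 39405906 to 39421403, minus strand), had the largest rise of all 36 members. It measured 11.9, 14.5 and 11.8 CPM in shControl, 13.7, 11.4 and 14.6 CPM in shBMAL1 and 47.97, 45.8 and 44.9 CPM in shARNT. The shControl and shBMAL1 libraries were interleaved and the shARNT libraries lay far above them, with 1.86 (SE 0.087, adjusted p = 6.88e-14) in shARNT and 0.06 (SE 0.094, adjusted p = 0.613) in shBMAL1. Another protein-coding gene annotated on the same strand shares 77.5% of the SARS2 transcript, so how the counting assigned their reads is uncertain. YARS2, the mitochondrial tyrosine enzyme (chromosome 12, 32880424 to 32908831, minus strand), rose from 15.3, 16.6 and 16.5 CPM to 42.04, 40.7 and 45.2 CPM in shARNT, 1.40 (SE 0.071, adjusted p = 2.62e-13), with 18.3% of its transcript under an antisense noncoding RNA. In shBMAL1 it was at 17.3, 16.9 and 19.6 CPM, 0.15 (SE 0.075, adjusted p = 0.0892), a call that was lost without shControl replicate 1 (0.11) or 3 (0.17), shBMAL1 replicate 3 (0.08) or shARNT replicate 1 (0.15).

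LARS2, the mitochondrial leucine enzyme (chromosome 3, 45430053 to 45596218, plus strand), was the mitochondrial gene that rose strongly in both depletions. Its shControl libraries had 11.8, 12.8 and 13.3 CPM. The shBMAL1 libraries had 28.3, 26.6 and 27.6 CPM, 1.12 (SE 0.085, adjusted p = 8.03e-10), and the shARNT libraries 29.2, 32.6 and 37.3 CPM, 1.38 (SE 0.084, adjusted p = 4.88e-12). The direct difference was small by comparison, 0.27 (SE 0.078, adjusted p = 0.00428). NARS2, the asparagine enzyme, was the next rise in shBMAL1, from 7.39, 6.20 and 6.18 CPM to 8.07, 8.65 and 8.44 CPM, 0.35 (SE 0.1, adjusted p = 0.0073), and reached 10.4, 10.5 and 10.9 CPM in shARNT. MARS2, EARS2, FARS2 and PARS2 rose by 1.03, 0.59, 0.57 and 0.50 in shARNT. Of these, EARS2, which charges glutamate, fell by 0.29 in shBMAL1 (adjusted p = 1.87e-05) and the others were not called there.

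Falls among the mitochondrial genes involved different members in the 2 depletions, apart from RARS2. In shARNT HARS2, the histidine enzyme (chromosome 5, 140071015 to 140078890, plus strand), fell from 51.2, 48.4 and 49.01 CPM to 26.2, 27.05 and 23.4 CPM, -0.95 (SE 0.061, adjusted p = 1.05e-11), and WARS2, the tryptophan enzyme (chromosome 1, 119573839 to 119683277, minus strand), from 11.3, 12.3 and 11.5 CPM to 6.75, 4.68 and 7.81 CPM, -0.87 (SE 0.13, adjusted p = 5.27e-06). All shARNT libraries lay below all others for both genes, with the widest spread between replicates in WARS2. The deposited WARS2 counts held fractions except in shARNT replicates 2 and 3 (185 and 310 counts), and how these were assigned is not known. In shBMAL1 HARS2 was at 55.5, 51.6 and 52.2 CPM and WARS2 at 10.5, 9.93 and 10.2 CPM. Neither was called although their libraries did not overlap shControl, as was also so for TARS2 and the cytosolic HARS. Over all genes tested, called or not, 62.2% had libraries that did not overlap in this comparison. WARS2 was called in shBMAL1 without shARNT replicate 2 (-0.20). RARS2, the arginine enzyme (chromosome 6, 88223177 to 88299746, minus strand), fell from 54.3, 50.6 and 49.2 CPM to 36.4, 38.5 and 34.9 CPM in shBMAL1, -0.49 (SE 0.058, adjusted p = 5.26e-07), and to 42.6, 46.2 and 44.02 CPM in shARNT, -0.21 (SE 0.057, adjusted p = 0.00208), where scaling by library size alone gave 0.02. AARS2, the alanine enzyme, fell from 41.3, 45.7 and 42.6 CPM to 33.5, 35.4 and 34.3 CPM in shBMAL1, -0.33 (SE 0.057, adjusted p = 5.59e-05), and was not called in shARNT at 44.3, 41.6 and 43.9 CPM, 0.00 (SE 0.056, adjusted p = 0.974).

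Cytosolic and mitochondrial enzymes were paired by name, X with X2, which gave pairs for 13 amino acids. In shARNT 5 pairs had enzymes called in opposite directions, 6 had both higher, none had both lower and 2 had an enzyme that was not called. With scaling by library size alone 4 pairs were opposite and 8 both higher, since VARS and RARS2 were no longer lower and AARS2 became called higher beside the lower AARS. In shBMAL1 2 were opposite, 2 both higher, 1 both lower and 8 had at least 1 enzyme not called, against 1 opposite, 5 both higher and 1 both lower with library size alone. In the direct contrast 4 were opposite, 7 both higher and 1 both lower. Both directions were common over all genes, with 40.5% called higher and 41.3% lower in shARNT. The shares were 31.9% and 31.5% in shBMAL1, and 40.1% and 41.1% in the direct contrast. Whether opposite calls were more common in these pairs than between other genes was not tested. Phenylalanine (FARSA, FARSB and FARS2), glutamate (EPRS and EARS2) and proline (EPRS and PARS2) were left out of these counts. In shARNT these genes were called higher except EPRS, which was not called. In shBMAL1 EPRS was higher (0.21) and EARS2 lower (-0.29), while FARS2 and PARS2 were not called. In the direct contrast EPRS (-0.26) was opposite to EARS2 (0.89) and PARS2 (0.64). The ratio of cytosolic to mitochondrial counts in the same library does not depend on scaling between libraries. It is given here for the opposite pairs among the 13, as a relative value that is not corrected for length.

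The tryptophan pair moved furthest. The WARS to WARS2 ratio was 3.26, 3.15 and 3.08 in shControl, 5.70, 5.69 and 5.66 in shBMAL1 and 17.2, 24.1 and 14.9 in shARNT. Each group was separate from the others, and the rise in shARNT came with WARS higher and WARS2 lower. The histidine pair had a HARS to HARS2 ratio of 1.77, 1.80 and 1.80 in shControl, 1.68, 1.82 and 1.77 in shBMAL1 and 5.67, 5.60 and 6.47 in shARNT. The shBMAL1 libraries overlapped shControl and the shARNT libraries lay well above both. HARS (chromosome 5, 140052620 to 140071122, minus strand) rose from 90.7, 87.2 and 88.1 CPM to 148, 151 and 152 CPM in shARNT, 0.76 (SE 0.04, adjusted p = 4.37e-13), as HARS2 fell, and in shBMAL1 it was at 93.1, 93.7 and 92.3 CPM, 0.07 (SE 0.04, adjusted p = 0.154). For both genes the direct contrast was called, with 0.69 for HARS and -1.05 for HARS2.

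HARS and HARS2 lie head to head. The starts of their main transcripts, at 140070955 on the minus strand and 140071040 on the plus strand of chromosome 5, are 85 bases apart, and the 84 bases between them have a GC content of 59.5%, 9 CpG and 1 core of the hypoxia response element. That core is shown within 30 bases of the HARS2 strand, with its letters in capitals, and is read on the opposite strand as GCGTG.
HARS and HARS2 gap (chr5:140070971-140071000, plus strand): agtcgctgggtcgCACGCctagagagcctc
Some annotated HARS transcripts start beyond this stretch, and 3.4% of the HARS2 transcript overlaps HARS exons while 11.3% of the HARS transcript overlaps WDR55, on opposite strands in each case, and ZMAT2 on the same strand overlaps 6.2% of the HARS2 transcript. There were 7 head-to-head pairs with starts within 1000 bases that involve a member, a property looked up after the values were seen. SARS2 rose by 1.86 in shARNT, whereas MRPS12, whose start lies 181 bases away, measured -0.03 (SE 0.054, adjusted p = 0.604). EARS2 rose by 0.59 and its neighbour UBFD1 fell by 0.79 (SE 0.063, adjusted p = 4.55e-10). RARS2 fell by 0.21 and its neighbour ORC3 fell by 0.53 (SE 0.098, adjusted p = 5.23e-05). YARS rose by 0.99 and S100PBP by 0.56, and FARS2 rose by 0.57 and LYRM4 by 1.06. KARS was not called (0.01) while TERF2IP rose by 0.40. In shARNT neighbours thus moved apart in some pairs and together in others.

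The other opposite pairs moved less. The CARS to CARS2 ratio was 1.77, 1.42 and 1.54 in shControl, 2.23, 2.04 and 1.99 in shBMAL1 and 3.02, 2.95 and 2.97 in shARNT. In shARNT the cysteine enzyme CARS rose from 139, 126 and 142 CPM to 175, 168 and 179 CPM, 0.35 (SE 0.046, adjusted p = 5.76e-07), and CARS2 fell from 78.8, 88.97 and 92.1 CPM to 57.9, 56.8 and 60.3 CPM, -0.57 (SE 0.056, adjusted p = 1.17e-08). In shBMAL1 CARS was at 191, 184 and 186 CPM, 0.46 (SE 0.046, adjusted p = 3.73e-08), and CARS2 at 85.6, 90.2 and 93.5 CPM, 0.05 (SE 0.056, adjusted p = 0.45). Every depleted library had a higher ratio than any control library. The RARS to RARS2 ratio was 3.01, 3.00 and 3.16 in shControl, 4.17, 4.00 and 4.57 in shBMAL1 and 5.26, 4.85 and 4.87 in shARNT. Here RARS rose from 164, 152 and 155 CPM to 224, 224 and 214 CPM in shARNT, 0.49 (SE 0.041, adjusted p = 7.26e-10), and was at 152, 154 and 159 CPM in shBMAL1, -0.02 (SE 0.041, adjusted p = 0.753).

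For valine the direction was turned round, with VARS lower and VARS2 higher in shARNT. The ratio went from 3.02, 2.77 and 3.05 in shControl to 2.22, 2.42 and 2.44 in shARNT and was 2.92, 2.70 and 3.06 in shBMAL1, where it overlapped shControl. VARS2 measured 64.3, 71.7 and 67.99 CPM in shControl, 81.4, 73.6 and 76.9 CPM in shARNT, 0.18 (SE 0.053, adjusted p = 0.00341), and 55.2, 58.5 and 57.1 CPM in shBMAL1, -0.26 (SE 0.054, adjusted p = 3.82e-04). The whole VARS2 transcript lies under a noncoding RNA of the same strand, so its counts are uncertain. In shBMAL1 the alanine pair was opposite, with AARS at 245, 246 and 248 CPM, 0.48 (SE 0.052, adjusted p = 1.33e-07), beside the fall of AARS2, and its ratio was 4.36, 3.71 and 4.25 in shControl, 7.29, 6.95 and 7.22 in shBMAL1 and 2.69, 3.19 and 3.27 in shARNT. The isoleucine pair was opposite as well, IARS going from 501, 474 and 483 CPM to 649, 643 and 647 CPM, 0.41 (SE 0.037, adjusted p = 1.10e-08), and IARS2 from 434, 413 and 410.3 CPM to 401, 403 and 395 CPM, -0.07 (SE 0.035, adjusted p = 0.0989). The IARS to IARS2 ratio was 1.16, 1.15 and 1.18 in shControl, 1.62, 1.59 and 1.64 in shBMAL1 and 1.05, 1.08 and 1.13 in shARNT. That IARS2 call was lost with library size alone (-0.02) and in 6 of 9 fits without 1 library, those without shControl replicate 1 (-0.04) or 2 (-0.08), shBMAL1 replicate 1 (-0.07), 2 (-0.08) or 3 (-0.06), or shARNT replicate 2 (-0.07). In shARNT IARS was at 509, 534 and 554 CPM, 0.13 (SE 0.037, adjusted p = 0.00349), and IARS2 at 485, 495 and 489.9 CPM, 0.23 (SE 0.035, adjusted p = 6.44e-06).

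**Figure D3:**
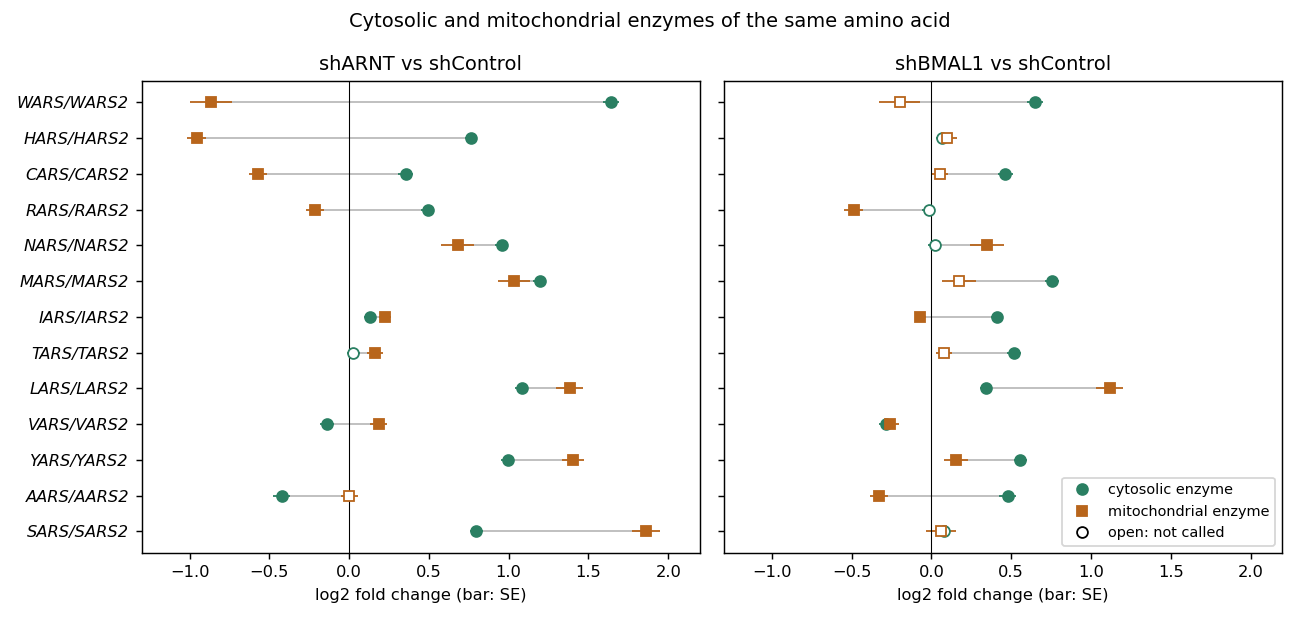
Log2 fold change with SE of the cytosolic (circle) and mitochondrial (square) enzyme of 13 amino acids against shControl, open where not called, ordered by the shARNT difference. In shARNT the line between the enzymes crosses 0 from WARS2 to WARS and from HARS2 to HARS, and in shBMAL1 HARS and HARS2 lie together near 0.

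**Figure D4:**
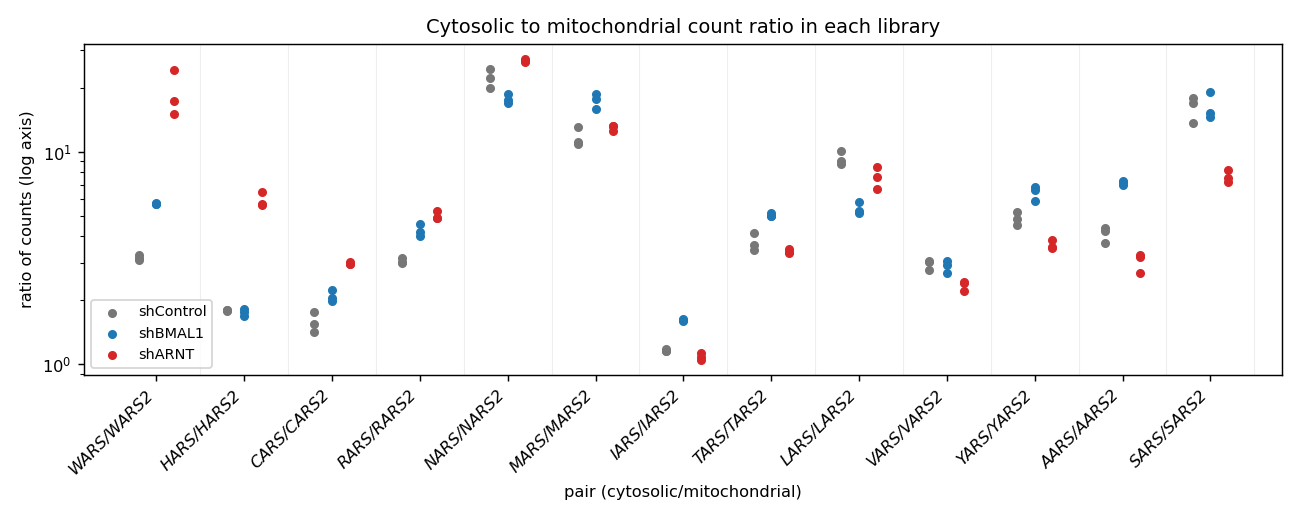
Ratio of cytosolic to mitochondrial counts on a log axis for the 13 pairs, with 1 point a library. The WARS to WARS2 ratio lies between 3.08 and 3.26 in shControl and between 14.9 and 24.1 in shARNT, and the SARS to SARS2 ratio falls from between 13.6 and 17.9 to between 7.20 and 8.15.

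Among the pairs matched by name, those with both enzymes higher in shARNT were for isoleucine, leucine, methionine, asparagine, serine and tyrosine. Their ratios moved by less than those of tryptophan and histidine, from a log2 change of -1.07 for SARS to SARS2 to 0.27 for NARS to NARS2. The SARS to SARS2 ratio was 17.9, 13.6 and 16.9 in shControl, 15.2, 19.1 and 14.6 in shBMAL1 and 7.20, 7.49 and 8.15 in shARNT, where SARS2 rose beyond the SARS rise of 0.80. For leucine the ratio was 10.1, 9.07 and 8.73 in shControl, 5.17, 5.81 and 5.28 in shBMAL1 and 8.44, 7.62 and 6.69 in shARNT, so it was lowest in shBMAL1. Threonine had 1 called enzyme in each depletion, TARS2 in shARNT with 0.16 and TARS in shBMAL1 with 0.52.

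Genes that act around the synthetases were examined in lists of known roles. Over all genes, 40.5% were called higher and 41.3% lower in shARNT, and 31.9% and 31.5% in shBMAL1. The scaffolds of the multisynthetase complex had 2 of 3 genes higher in shARNT and none called in shBMAL1. AIMP2 measured 0.80 in shARNT (SE 0.06, adjusted p = 1.79e-10) and 0.01 in shBMAL1, AIMP1 0.19 and -0.09, and EEF1E1 0.21 and 0.39. Of 29 genes of tRNA maturation, modification and export, 22 rose and 3 fell in shARNT (median 0.68), and 13 rose and 4 fell in shBMAL1 (median 0.14). XPOT, which carries tRNA out of the nucleus, rose in both, by 0.93 (SE 0.041, adjusted p = 2.50e-14) and 0.39 (SE 0.041, adjusted p = 8.57e-08). TRMT1, a tRNA methyltransferase, rose by 1.24 in shARNT, and NSUN2, a methyltransferase for cytosine in tRNA, fell by 0.87 in shBMAL1. Of 23 partners of mitochondrial tRNA and translation, 18 rose and 1 fell in shARNT (median 0.65), and 12 rose and 4 fell in shBMAL1 (median 0.15). TUFM, the mitochondrial factor that brings charged tRNA to the ribosome, rose by 1.62 (SE 0.035, adjusted p = 2.90e-19) in shARNT, while MTIF2, a mitochondrial initiation factor, rose by 0.51 (SE 0.048, adjusted p = 2.04e-08) in shBMAL1.

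Genes of the cytosolic eEF1 factors mostly fell. EEF1A1 and EEF1A2 encode the factor that delivers charged tRNA to the ribosome, and they moved in opposite directions in shARNT. EEF1B2, EEF1D and EEF1G encode subunits of its exchange factor. Of 5 eEF1 genes, 4 fell and 1 rose in shARNT (median -0.98) and all 5 fell in shBMAL1 (median -0.30). Among all genes the shares called higher and lower were 40.5% and 41.3% in shARNT, and 31.9% and 31.5% in shBMAL1. EEF1A1, which binds charged tRNA in the cytosol, fell by 1.66 in shBMAL1 and 1.01 in shARNT, with counts that may be shared with its many processed copies, and EEF1A2 rose by 1.82 (SE 0.037, adjusted p = 9.50e-20) in shARNT. TARSL2, a paralog of TARS, fell by 1.46 in shARNT (SE 0.072, adjusted p = 1.71e-13) and measured 0.01 in shBMAL1. In its list of 6 selenocysteine, proofreading and paralog genes, 1 rose and 3 fell in shARNT, and 2 rose and 1 fell in shBMAL1, where SEPSECS had the smallest p with -0.74.

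ATF4 transcript was higher in both depletions, by 0.50 (SE 0.042, adjusted p = 9.77e-10) in shARNT and 0.23 (SE 0.043, adjusted p = 1.32e-04) in shBMAL1. Its known targets outside the synthetases did not follow 1 direction. Of 32 genes in the list with ATF4 itself, 9 rose and 16 fell in shARNT (median -0.08) and 17 rose and 10 fell in shBMAL1 (median 0.16). Beside these, 40.5% of all genes were called higher and 41.3% lower in shARNT, and 31.9% and 31.5% in shBMAL1. ASNS, asparagine synthetase, measured -0.14 (SE 0.051, adjusted p = 0.0149) in shARNT and 0.65 (SE 0.05, adjusted p = 9.35e-10) in shBMAL1. TRIB3, a pseudokinase of the stress response, fell by 2.89 in shARNT and 0.44 in shBMAL1, DDIT3 rose by 0.70 and 0.47, ALDH1L2, a mitochondrial folate enzyme, fell by 2.57 in shARNT, and SLC7A5, an amino acid transporter, fell by 1.17 in shBMAL1. EIF2AK4, the kinase GCN2 that senses uncharged tRNA, was at -0.39 (SE 0.044, adjusted p = 6.79e-08) in shARNT and 0.14 (SE 0.043, adjusted p = 0.00891) in shBMAL1. Its list of eIF2α kinases and phosphatase subunits also holds EIF2S1, the gene of eIF2α itself. The list had 4 higher and 3 lower of 7 in shARNT, led by PPP1R15A (0.96), and 5 higher and 1 lower in shBMAL1, led by PPP1R15B (0.86). EIF2S1 was among the higher genes in both, with 0.19 in shARNT and 0.29 in shBMAL1.

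**Figure D5:**
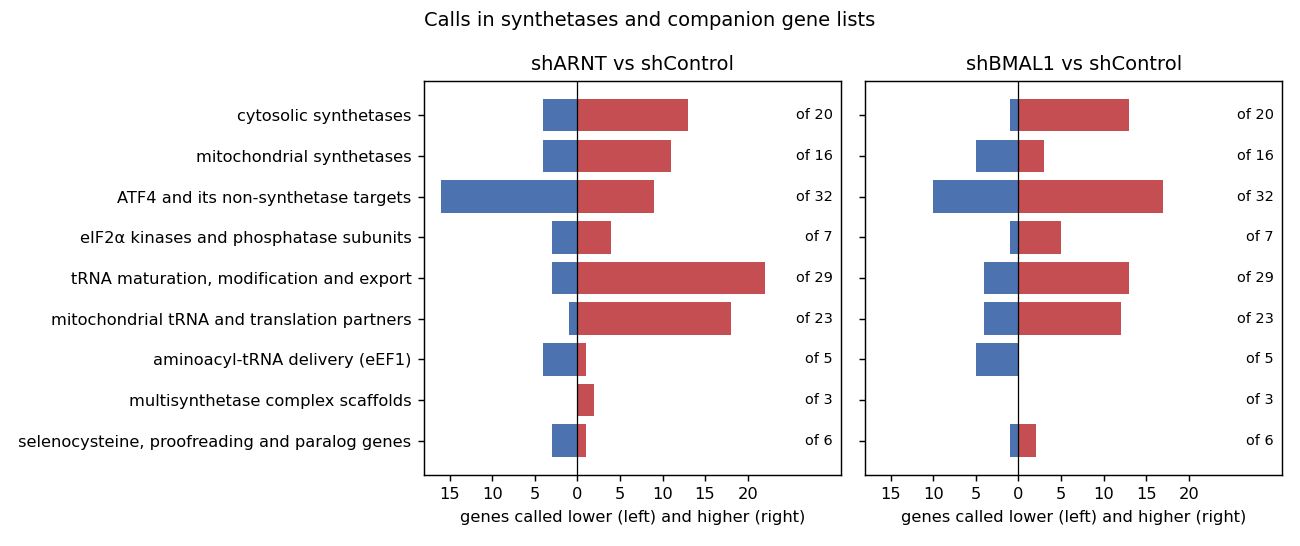
Number of genes called lower (left of 0) and higher (right of 0) in each depletion against shControl for the synthetases and companion lists, with the number tested at the right. In shARNT mitochondrial translation partners have 18 higher and 1 lower and the ATF4 list 9 higher and 16 lower. Of all genes, 40.5% were called higher and 41.3% lower there.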

How the data were processed

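RNA was isolated from A498 cells with lentiviral shRNA, and stranded mRNA libraries were sequenced in pairs on a BGISEQ-500. By the study's methods the reads were aligned to GRCh37 with SeqMan NGen and counted in ArrayStar, whereas the submitters' processing notes name STAR, DESeq2 and hg38. The annotation, the use of strand and the handling of reads with several places are not given in the sources used here. The deposited values are expected counts per gene without normalization, some of them with fractions. A value of 0.05 stood for no reads and was set to 0, and the counts were rounded. Rows of 45 names that occurred more than once were summed. Library totals were 35269857 to 36099083. Replicates of a group differed by more than sampling noise, with a chi-square of 3.93 to 7.21 per gene.

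edgeR 4.0.16 in R 4.3.3 was used with glmQLFit and glmQLFTest on all 9 libraries in 1 fit by group, TMM scaling and filterByExpr. A call needed a p under 0.1 after Benjamini-Hochberg adjustment over 15551 genes. The SE was the fold change divided by the root of F. DESeq2 1.42.0, other scalings, no filter, a minimum fold of 1.5, fits of 2 groups, a replicate block, halved counts and leaving out each library were alternatives. The fit was tested on simulated data.

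Members and lists were chosen with earlier results of these data known. Values per library are given for the called genes with the 2 largest rises and falls per class and depletion. They are also given for pairs of enzymes named X and X2 that were called in opposite directions. Fixed companion genes and the smallest p of each companion list are given more briefly. TARS was added after its values were seen. Gene positions and lengths came from GENCODE 44 lifted to GRCh37, promoters from RefSeq. Protein sequences were not analysed here. A further companion list is not reported here.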

Additional observations from a re-analysis of the deposited data

Results flagged for a closer look

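The response to the depletions differed for 35 of 36 members in the direct contrast of shARNT with shBMAL1, with 81.2% of all genes called in that contrast. Values in this paragraph are log2 differences, shARNT minus shBMAL1, by edgeR's quasi-likelihood test at an adjusted p under 0.1. Members called in opposite directions against shControl were AARS (-0.90), DARS (-1.01), EARS2 (0.89), IARS2 (0.29) and VARS2 (0.44). Cytosolic genes higher in shARNT were WARS (0.99), NARS (0.93), FARSA (0.76), LARS (0.74), SARS (0.72), HARS (0.69), RARS (0.51), MARS (0.44), YARS (0.44), QARS (0.18), VARS (0.15) and FARSB (0.10). Cytosolic genes lower in shARNT were GARS (-0.58), TARS (-0.49), IARS (-0.28), EPRS (-0.26), KARS (-0.18) and CARS (-0.11).

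Mitochondrial genes higher in shARNT were SARS2 (1.80), YARS2 (1.25), MARS2 (0.86), PARS2 (0.64), FARS2 (0.58), NARS2 (0.33), AARS2 (0.33), RARS2 (0.27) and LARS2 (0.27). Those lower in shARNT were HARS2 (-1.05), WARS2 (-0.67) and CARS2 (-0.62). VARS, RARS2 and AARS2 stood below shControl or near it in both depletions and the shBMAL1 level was the lower one. FARSB had an adjusted p of 0.067 and CARS of 0.0362, and without shARNT replicate 2 (0.10 and -0.08) neither was called.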

How the results depend on the processing

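Across 1836 recomputed changes of single members, 1735 kept their side of the threshold and, where called, their direction. A change of sign between values that were both not called was counted among these. Of the others, 82 were no longer called, 59 of these under a minimum fold of 1.5, and 14 became called. The last 5 reversed, with a call before or after. The 5 reversals came with scaling by library size alone, EPRS (0.19), VARS (0.10) and RARS2 (0.0227) in shARNT, and CARS (0.0824) and KARS (0.0152) in the direct contrast. That scaling moved the median of cytosolic genes to 0.60 (shARNT), 0.29 (shBMAL1) and 0.35 (direct contrast) and that of mitochondrial genes to 0.60, 0.067 and 0.52, with 6 mitochondrial genes higher in shBMAL1. The median of all genes moved by a like amount, from -0.01 to 0.23 in shARNT and to 0.18 in the direct contrast, and relative to it the cytosolic median stayed at 0.37 in shARNT. A minimum fold of 1.5 left 8 cytosolic genes higher and 1 lower in shARNT, 1 and 0 in shBMAL1, and 6 and 2 in the direct contrast. It left 4 mitochondrial genes higher and 2 lower in shARNT, 1 and 0 in shBMAL1, and 4 and 1 in the direct contrast. Such a fold lies above most member changes in shBMAL1, so fewer genes pass by construction. Leaving out 1 library gave 13 higher and 4 lower cytosolic genes in shARNT each time, with medians of 0.33 (without shControl replicate 2) to 0.38, and 11 higher and 4 lower mitochondrial genes, with medians of 0.32 to 0.40. In shBMAL1 13 to 14 cytosolic genes were higher and 1 lower (medians 0.23 to 0.26), and 2 to 3 mitochondrial genes were higher and 4 to 5 lower (medians -0.0164, without shBMAL1 replicate 3, to 0.0453). In the direct contrast the ranges were 11 to 12 higher and 7 to 8 lower cytosolic genes (medians 0.15 to 0.18) and 12 to 13 higher and 3 lower mitochondrial genes (medians 0.30 to 0.35). TARS2 became called in the direct contrast without shARNT replicate 1 (0.11). In YARS2 in shBMAL1, DESeq2's Wald test gave an adjusted p of 0.157 and the call was also lost with DESeq2 size factors, no filter, fits of 2 groups, halved counts and the minimum fold. Equal replicate numbers did not mark pairs, since deviations of same-numbered libraries correlated at -0.22 to 0.19. With a replicate block the counts were again 13 higher and 4 lower cytosolic genes and 11 higher and 4 lower mitochondrial genes in shARNT, and no call of a member changed. Depth was even and limits most the members with the lowest levels, such as NARS2, PARS2 and WARS2.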
